A study of Homo sapiens with 12 samples.

Results

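The genes described here are 8 enzymes that build mucosal glycans and Lewis blood group antigens: FUT1, FUT2, FUT3, FUT6, B3GALT5, B3GNT3, GALNT3 and GCNT3. They were taken by name from the 60649 gene IDs of the deposited tables, and each name matched 1 ID. They were chosen by their measured response to TEAD inhibition, that is with their levels in the 4 groups and their fold changes in both comparisons known, so their own fold changes under treatment are given as a description, with counts of calls but without p-values.

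Messenger RNA was sequenced from xenograft tumours of Cal33, an established human line of squamous carcinoma of the head and neck, in 4 groups of 3 libraries. The smTEADi tumours were treated with SW-682, a small molecule TEAD inhibitor, and the Vehicle tumours are their controls. The pTEADi tumours were labelled DOX+ and the Control tumours DOX-, so doxycycline separates that pair as well as the inhibitor does, and no group given doxycycline without pTEADi was analysed here. All groups derive from 1 cell line. The dose, the duration of treatment and the host strain are not given in the sources used here. Nor do these say if each sample is a different animal, so every test measures the spread between the samples as deposited.

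TEAD proteins bind DNA and carry the co-activators YAP and TAZ to their target genes. Mucin-type glycans start when a GALNT enzyme, such as the one encoded by GALNT3, places N-acetylgalactosamine on a serine or threonine. Branching enzymes such as the GCNT3 product and chain builders such as the B3GNT3 and B3GALT5 products then lengthen the sugar chain, and fucosyltransferases finish it. The FUT1 and FUT2 enzymes make the H antigen, and the FUT3 and FUT6 enzymes add the fucose of Lewis antigens. In stratified mucosa such structures belong mainly to the maturing cell layers.

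FUT3 and FUT6 lie beside each other on the minus strand of chromosome 19 in GRCh38, at 5842888 to 5851471 and 5830408 to 5839722, with 3165 bases between them. B3GALT5, on the plus strand of chromosome 21 at 39556442 to 39673137, and B3GNT3, on the plus strand of chromosome 19 at 17794828 to 17813576, varied with them from library to library (values below). All promoters listed for these 4 genes are shown for that reason, from RefSeq on GRCh38.p14, each as 250 bases before and 50 bases after an annotated start, 5′ to 3′ on the gene's strand. Capitals mark matches to GGAATG, the core sequence that TEAD proteins recognise, on either strand. B3GALT5 has 2 listed starts.
FUT3 (chr19:5851400-5851699, minus strand): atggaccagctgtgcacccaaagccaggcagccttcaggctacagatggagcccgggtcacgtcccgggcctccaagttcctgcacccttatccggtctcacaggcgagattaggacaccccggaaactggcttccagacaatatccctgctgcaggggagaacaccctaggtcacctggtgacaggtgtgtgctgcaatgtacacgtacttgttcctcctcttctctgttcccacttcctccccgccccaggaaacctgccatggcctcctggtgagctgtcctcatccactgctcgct
FUT6 (chr19:5839653-5839952, minus strand): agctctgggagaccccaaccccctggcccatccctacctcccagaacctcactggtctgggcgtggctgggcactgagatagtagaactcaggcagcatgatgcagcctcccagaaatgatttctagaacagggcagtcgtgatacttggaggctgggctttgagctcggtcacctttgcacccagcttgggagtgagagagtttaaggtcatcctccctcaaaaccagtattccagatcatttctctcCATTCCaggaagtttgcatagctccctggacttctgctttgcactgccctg
B3GALT5, first start (chr21:39612690-39612989, plus strand): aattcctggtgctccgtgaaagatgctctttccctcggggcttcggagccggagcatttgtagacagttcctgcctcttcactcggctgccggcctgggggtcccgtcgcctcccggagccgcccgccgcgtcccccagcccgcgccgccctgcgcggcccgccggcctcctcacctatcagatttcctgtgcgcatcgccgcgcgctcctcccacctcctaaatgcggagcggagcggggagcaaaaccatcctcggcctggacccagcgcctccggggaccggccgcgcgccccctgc
B3GALT5, second start (chr21:39642146-39642445, plus strand): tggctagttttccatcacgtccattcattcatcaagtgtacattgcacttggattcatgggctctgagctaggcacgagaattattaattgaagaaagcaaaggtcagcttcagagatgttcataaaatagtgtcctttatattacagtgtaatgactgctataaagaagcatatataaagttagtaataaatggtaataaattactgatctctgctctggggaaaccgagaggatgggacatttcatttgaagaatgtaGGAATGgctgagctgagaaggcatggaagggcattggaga
B3GNT3 (chr19:17794888-17795187, plus strand): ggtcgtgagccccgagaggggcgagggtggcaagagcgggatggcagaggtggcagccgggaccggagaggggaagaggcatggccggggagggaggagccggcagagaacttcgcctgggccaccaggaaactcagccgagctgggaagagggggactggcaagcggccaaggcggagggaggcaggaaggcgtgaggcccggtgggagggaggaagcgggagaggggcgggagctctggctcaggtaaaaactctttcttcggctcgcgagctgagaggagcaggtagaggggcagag

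The match of FUT6, on the opposite strand, begins 1 base before the start, and that of the second B3GALT5 start begins at transcribed base 11. The windows of FUT3, B3GNT3 and the first B3GALT5 start hold none. Of the 10 promoters listed for the 8 genes, these were the 2 with GGAATG, which 14.03% of all 35116 promoters hold. The AP-1 sequence TGANTCA was in 1 of the 10, that of GCNT3, against 7.71% of all promoters. The GRHL sequence AACCNGTT was also in 1 of the 10, again that of GCNT3, against 1.73% of all. All 3 searches covered both strands, and a match describes the letters only.

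All 8 genes passed the low-count filter in both comparisons, none of them through 1 group alone. Under SW-682, 3 of the 8 genes rose (FUT2, FUT6 and B3GALT5) and none fell. Over all 14829 genes tested, 2.02% rose and 3.48% fell, where a call is an adjusted p under 0.05 in edgeR's quasi-likelihood test. Under pTEADi, 4 rose (FUT2, FUT3, FUT6 and B3GALT5) and GALNT3 fell, where 12.7% of 14705 genes rose and 13.6% fell. The median log2 fold change of the 8 was 0.62 under SW-682 and 0.64 under pTEADi. FUT1, B3GNT3 and GCNT3 passed in neither comparison. Libraries of the 2 groups did not overlap for 3 genes that were higher and none that were lower under SW-682, against 15.7% and 17.3% of all genes tested. Under pTEADi they did not overlap for 3 higher and 1 lower, against 20.3% and 21.7%. Since these comparisons informed the choice of the genes, their counts are not read against the background. The 3 calls under SW-682 became 0 when the first or the third Vehicle library or the third smTEADi library was left out, and 1 without the second smTEADi library.

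**Figure D1:**
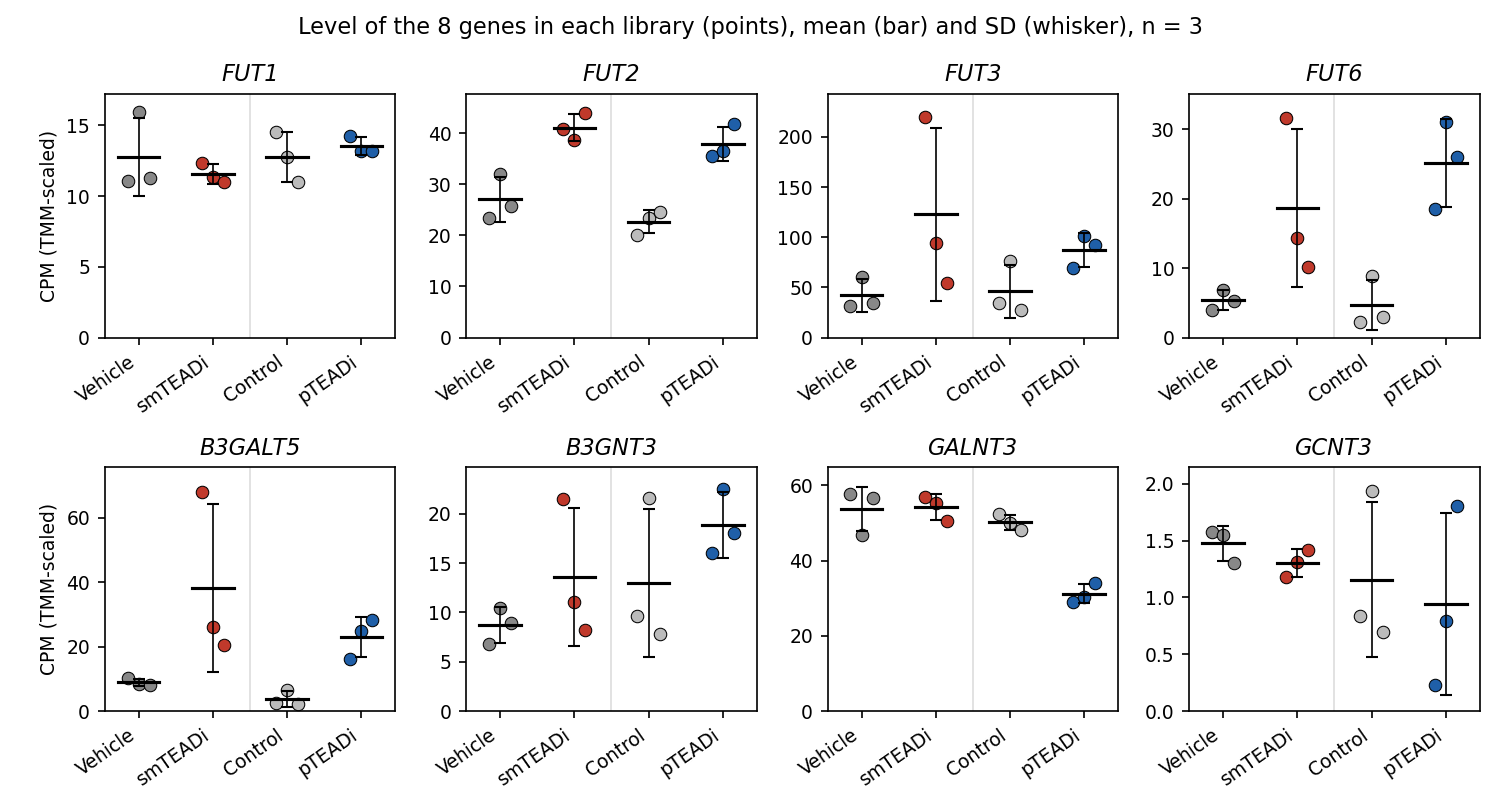
CPM (counts scaled to library size, with TMM) of each of the 8 genes on a linear axis from 0, with 1 point per library, a bar for the mean and a whisker for the SD of each group (n = 3). FUT2, FUT6 and B3GALT5 stand above both control groups in every treated library, and GALNT3 is low in pTEADi only, at 29.1 to 33.9 CPM.

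The H antigen enzymes differed from each other. FUT2, the secretor gene that makes H antigen in epithelia, was at 23.4, 32.0 and 25.7 CPM in the Vehicle libraries 1 to 3 and at 40.7, 38.6 and 43.8 CPM in smTEADi. In the Control libraries FUT2 was at 20.2, 23.3 and 24.5 CPM and in pTEADi at 35.5, 36.4 and 41.7 CPM. No treated library of either pair overlapped its controls. Treated against control, FUT2 was 1.52-fold higher with SW-682 (log2 0.60 ± 0.13 SE) and 1.67-fold higher with pTEADi (log2 0.74 ± 0.11). Its treated libraries lay close together, at 41.1 ± 2.63 CPM (SD, n = 3) in smTEADi and 37.9 ± 3.34 CPM in pTEADi.

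FUT1, which makes H antigen on red cells and some other cells and lies 42059 bases from FUT2 on chromosome 19, stayed between 10.96 and 16.0 CPM in all 12 libraries. Its groups overlapped in both comparisons, with log2 fold changes of -0.14 ± 0.17 for SW-682 and 0.08 ± 0.14 for pTEADi.

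FUT3 encodes the Lewis enzyme proper, which can fucosylate both chain types and makes Lewis a and Lewis b. It was at 31.5, 60.9 and 34.1 CPM in Vehicle and at 219.5, 94.5 and 54.3 CPM in smTEADi. The third smTEADi library lay below the second Vehicle library, and the first smTEADi library was the highest of all 12. The log2 fold change of 1.54 ± 0.45 did not pass the test. FUT3 was at 34.7, 76.5 and 27.7 CPM in Control and at 69.0, 101.4 and 92.2 CPM in pTEADi. It passed there at log2 0.92 ± 0.29 although the second Control library lay above the first pTEADi library. That call was lost without the first or the third Control library, or without the second or the third pTEADi library. DESeq2 did not call FUT3 there either.

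FUT6, which encodes a fucosyltransferase of type 2 chains that makes Lewis x structures, was lower in level and rose in both comparisons. It was at 3.99, 6.90 and 5.26 CPM in Vehicle and at 31.6, 14.3 and 10.1 CPM in smTEADi. Control held 2.24, 8.86 and 3.001 CPM of FUT6, and pTEADi held 18.5, 31.0 and 26.0 CPM. The groups were apart in both pairs, and FUT6 was 3.46-fold higher with SW-682 (log2 1.79 ± 0.40) and 5.35-fold higher with pTEADi (log2 2.42 ± 0.38).

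The balance of these neighbours also differed between groups. FUT6 made up 11.2%, 10.2% and 13.4% of the FUT3 plus FUT6 counts in Vehicle and 12.6%, 13.1% and 15.7% in smTEADi, ranges that overlap. In Control the share was 6.07%, 10.4% and 9.77%, and in pTEADi it was 21.1%, 23.4% and 22.0%. The group means were 11.6% ± 1.63 (SD, n = 3) in Vehicle, 13.8% ± 1.69 in smTEADi, 8.74% ± 2.33 in Control and 22.2% ± 1.16 in pTEADi. The lowest pTEADi share had an exact (Clopper-Pearson) 95% interval of 18.8% to 23.5%, above the 8.74% to 12.3% of the highest Control share, and these intervals cover counting error only. The share is a description made from the values that chose the genes. FUT3 and FUT6 are near-identical in part of their sequence: their expected counts were whole numbers (within 0.005) in 2 of 12 libraries, against 12 of 12 for each of the other 6 genes, so part of their reads was divided between genes by the counting model. With both summed to 1 feature, the log2 fold change was 1.57 with SW-682 and 1.14 with pTEADi.

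**Figure D2:**
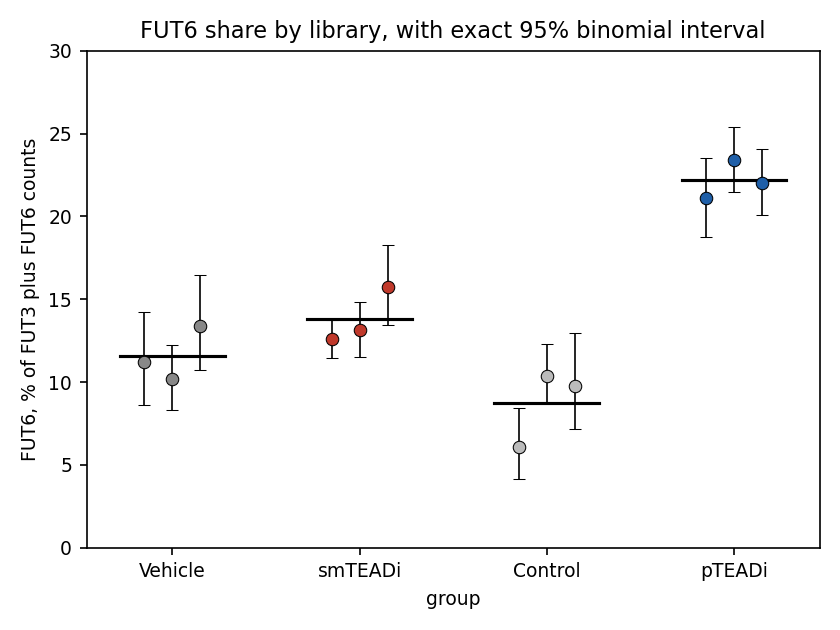
FUT6 as a percentage of FUT3 plus FUT6 expected counts, 1 point per library with its exact 95% binomial interval, and a bar for the group mean. The 3 pTEADi libraries sit between 21.1% and 23.4%, above the other 9, which lie between 6.07% and 15.7%.

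B3GALT5, which encodes the galactosyltransferase that makes the type 1 chains on which Lewis a and Lewis b are built, had the largest fold change of the 8 genes in both comparisons. It was at 10.2, 8.37 and 8.15 CPM in Vehicle and at 68.2, 26.1 and 20.5 CPM in smTEADi. Control held 2.37, 6.67 and 2.23 CPM and pTEADi 16.1, 24.9 and 28.2 CPM. The groups were apart in both pairs, with the first smTEADi library far above the other two of its group. Treated tumours had 4.28-fold more B3GALT5 with SW-682 (log2 2.10 ± 0.41) and 6.15-fold more with pTEADi (log2 2.62 ± 0.34). An antisense gene, B3GALT5-AS1, overlaps it at 2 to 29 counts per library against 32 to 926 for B3GALT5, and the strand setting of the counting is not given in the sources used here.

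B3GNT3, whose enzyme extends core 1 O-glycans and helps form the L-selectin ligands of high endothelial venules, was at 6.79, 10.4 and 8.91 CPM in Vehicle and at 21.5, 11.1 and 8.23 CPM in smTEADi. It was at 9.63, 21.6 and 7.82 CPM in Control and at 16.0, 22.5 and 18.0 CPM in pTEADi. Both pairs of groups overlapped, through the third smTEADi library in the first and the second Control library in the second. The log2 fold changes, 0.64 ± 0.33 and 0.54 ± 0.30, did not pass.

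GALNT3, which encodes an initiating enzyme of mucin-type glycans known for protecting the hormone FGF23 from cleavage, took the opposite course under pTEADi. It was at 57.7, 46.8 and 56.5 CPM in Vehicle and at 56.8, 55.3 and 50.4 CPM in smTEADi, overlapping groups with a log2 fold change of 0.01 ± 0.11. In Control it was at 52.3, 49.97 and 48.1 CPM and in pTEADi at 29.1, 30.4 and 33.9 CPM. Every pTEADi library lay below every other library, 1.61-fold lower than Control (log2 -0.69 ± 0.10).

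GALNT3 also lost ground within its family. As a share of the summed CPM per kilobase of the 20 GALNT genes it was 10.6% ± 1.29 in Vehicle, 10.9% ± 0.99 in smTEADi, 10.6% ± 0.95 in Control and 6.77% ± 0.43 in pTEADi (SD, n = 3). Its rank in the family was the fourth in Vehicle and smTEADi, the third in Control and the sixth in pTEADi. Of the 11 other GALNT genes tested, GALNT11 rose under pTEADi (log2 0.57 ± 0.10, edgeR adjusted p = 0.0015) and none fell. GALNT2, the most abundant of them, ranged from 139 to 229 CPM over the 12 libraries.

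GCNT3, which encodes the mucin-type branching enzyme of core 2 and core 4 glycans, was close to the limit of detection at 3 to 27 counts per library. Its log2 fold changes of -0.18 ± 0.31 and -0.28 ± 0.62 did not pass. Its pTEADi libraries held 3, 11 and 26 counts, spanning the 10 to 27 of Control. GTF2A2, with 241 to 363 counts, overlaps GCNT3 on the opposite strand.

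**Figure D3:**
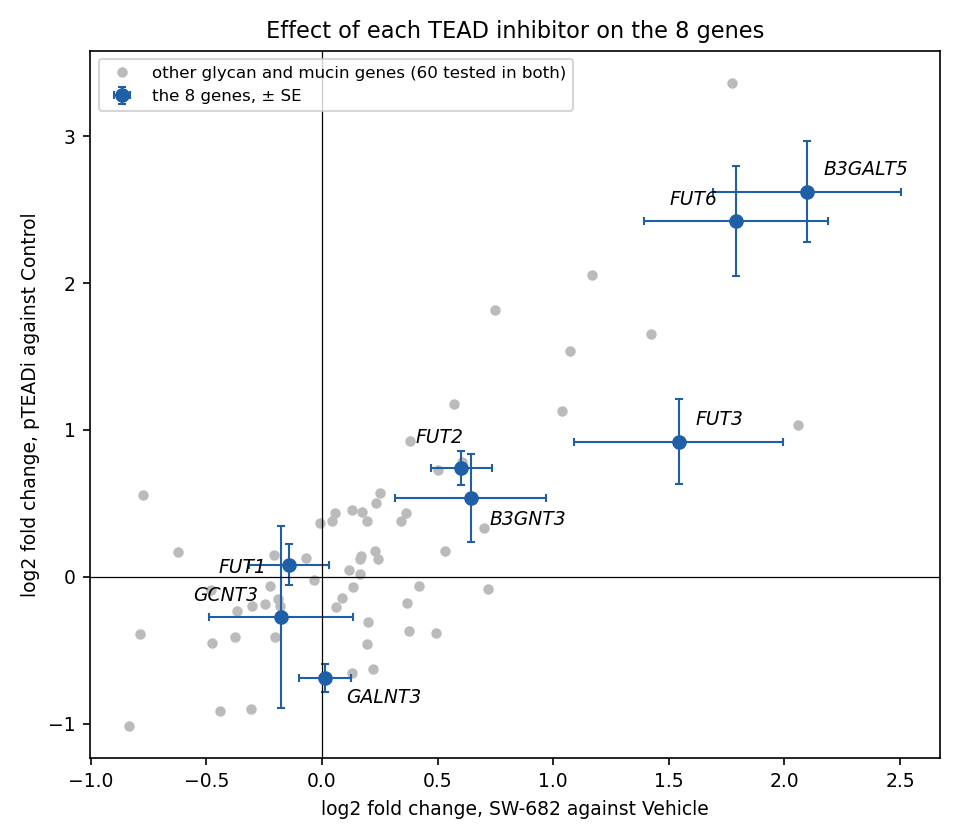
Log2 fold change of SW-682 against Vehicle (x axis) and of pTEADi against Control (y axis) for the 8 genes (blue, ± SE in each direction) and for 60 other glycan and mucin genes (grey). B3GALT5 and FUT6 lie at the upper right, and GALNT3 lies at 0.01 on the x axis and -0.69 on the y axis.

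Whether the effects of the 2 inhibitors differed was tested in 1 fit of the 12 libraries, as the pTEADi effect minus the SW-682 effect. This difference is made of the same values that chose the 8 genes, so for them it is a description too, and the following counts support nothing. None of the 8 passed with edgeR, where 0.0129% of 15460 genes did (CEMIP and CPT1A), and DESeq2 and an unadjusted p under 0.05 each gave 1, GALNT3. Its log2 difference was -0.70 ± 0.14. For FUT6 the difference was 0.63 ± 0.65, for B3GALT5 0.52 ± 0.63 and for FUT3 -0.62 ± 0.63, so differences of more than 1 log2 unit in these genes lie within 2 SE. For FUT2 it was 0.14 ± 0.17.

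The 2 control groups were compared in the same fit, as Control against Vehicle, again on levels that were known when the 8 genes were chosen. These 2 groups belong to 2 experiments, so experiment, cell derivative and handling cannot be told apart in this comparison. None of the 8 passed with edgeR or DESeq2, and 1 had an unadjusted p under 0.05, where 35.1% of 15460 genes passed (17.5% higher and 17.6% lower in Control). That gene was B3GALT5, lower in every Control library than in every Vehicle library, with a log2 difference of -1.25 ± 0.48. No other of the 8 was apart in either direction, where 23.8% of all genes tested were higher and 24.0% lower in every Control library. The B3GALT5 fold change of the pTEADi pair was taken over this lower control level, and the difference of the 2 effects for B3GALT5, 0.52 ± 0.63, did not pass. Its treated level was 23.1 ± 6.26 CPM (SD, n = 3) in pTEADi and 38.2 ± 26.1 CPM in smTEADi. The smTEADi libraries were at 68.2, 26.1 and 20.5 CPM, and those of pTEADi at 16.1 to 28.2 CPM.

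Per kilobase of the canonical transcript, the order of the genes was similar in all groups. In Vehicle, FUT3 (16.4 ± 6.34 CPM per kilobase) and GALNT3 (15.6 ± 1.73) led and did not differ beyond their spread. FUT2 followed at 8.68 ± 1.42, then FUT1 at 3.73 ± 0.81 and B3GNT3 at 3.23 ± 0.68, which overlapped each other, FUT6 at 1.62 ± 0.44, B3GALT5 at 0.68 ± 0.09 and GCNT3 at 0.30 ± 0.03. FUT3 remained the first, B3GALT5 the seventh and GCNT3 the last in every group. B3GALT5 thus stayed low on this scale despite its fold changes, at 2.92 ± 1.99 CPM per kilobase in smTEADi and 1.76 ± 0.48 in pTEADi. Its canonical transcript has 13097 bases, against 2565 (FUT3) to 4934 (GCNT3) for the others, so this place depends on the length used. Which transcript the tumours made was not measured. In CPM, the smTEADi mean of B3GALT5 was above those of FUT6, B3GNT3, FUT1 and GCNT3 and below those of FUT3, GALNT3 and FUT2. In pTEADi the middle of the order per kilobase was FUT2 (12.2 ± 1.07), GALNT3 (9.06 ± 0.73), FUT6 (7.57 ± 1.90), B3GNT3 close behind it and FUT1 (3.95 ± 0.18). By group mean, FUT6 stood above FUT1 in both treated groups and below it in both control groups. In smTEADi these means, 5.62 ± 3.42 for FUT6 and 3.38 ± 0.21 for FUT1, did not differ beyond their spread. In the third smTEADi library FUT6 lay below FUT1. Over merged exons in place of the canonical transcript, the FUT6 mean passed that of FUT1 in both treated groups as well. On that scale B3GNT3 moved up to the third place in pTEADi and GALNT3 down to the fourth. FUT2 and GALNT3 also changed places in smTEADi, as did FUT6 and B3GNT3, and FUT1 and B3GNT3 in Vehicle.

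FUT3, FUT6, B3GALT5 and B3GNT3 varied together among libraries of the same group. After each group's mean log2 CPM was taken off, their 6 pairs had Pearson correlations of 0.865 to 0.958 (median 0.908) over the 12 libraries. The other 22 pairs among the 8 genes ranged from -0.535 to 0.532 (median 0.244), and the set of 4 was picked after these values were seen. The first smTEADi library stood 0.95 log2 units above its group on the mean of the 4, and the second Control library 0.97 above. The third smTEADi library stood 0.73 below (-0.73). In those 3 libraries FUT2 stood between -0.01 and 0.10 and GALNT3 between -0.10 and 0.07 log2 units from its group mean. GCNT3, at low counts, stood 0.80 above in the second Control library. Over the 12 libraries B3GALT5 correlated with GCNT3 at 0.53 and with GALNT3 at 0.40, FUT3 with FUT1 at 0.50 and FUT6 with FUT2 at 0.31. These correlations describe 12 points that share 4 groups, and FUT3 and FUT6 also share reads.

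**Figure D4:**
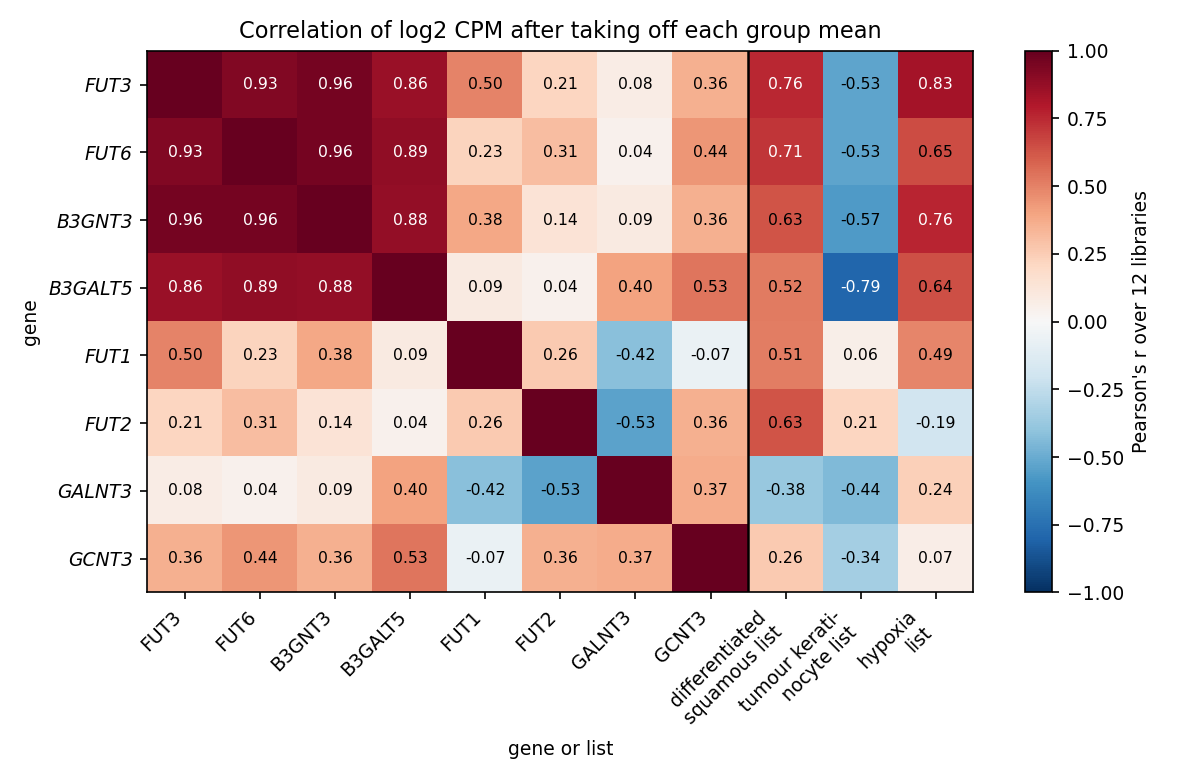
Pearson's r of log2 CPM over 12 libraries after each group's mean was taken off, between the 8 genes and, right of the line, with the mean of 3 gene lists; the colour scale runs from -1 to 1. FUT3, FUT6, B3GNT3 and B3GALT5 form a block at 0.865 to 0.958.

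The genes nearest to the mean profile of the 8 over the 12 libraries were looked for among 10621 genes with a mean of at least 5 CPM. That profile is made of the values that chose the 8 genes, so each r is a description. With group means taken off, the nearest 5 were ATG9B (r = 0.968), ARHGAP40 (0.963), NDRG2 (0.962), MARCHF9 (0.961) and SCNN1G (0.959). With group means kept they were S100A12 (0.962), NDRG2 (0.945), ATG9B (0.937), C1orf210 (0.929) and SPNS2 (0.929). NDRG2 and ATG9B were in both sets. The named genes did not all respond alike to treatment. Under pTEADi the log2 fold change was 1.09 ± 0.23 for NDRG2 and 1.33 ± 0.28 for S100A12, but 0.52 ± 0.49 for ATG9B and -0.04 ± 0.26 for SCNN1G. S100A12 encodes a calcium-binding protein found in neutrophils and in differentiating squamous epithelium, and SCNN1G a subunit of the epithelial sodium channel.

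Markers of differentiated squamous epithelium moved with the treatments and with the libraries. Of 10 such genes, 4 rose under SW-682 (median log2 1.17) and 8 under pTEADi (median log2 1.65), and none fell. In Control against Vehicle, 6 of the 10 were lower in Control and 0 higher (median log2 -1.15). The pTEADi fold changes of those 6 were taken over a lower control level. Of all genes tested, 2.02% rose under SW-682 and 12.7% under pTEADi, and 17.6% were lower in Control than in Vehicle. The list was chosen with earlier results of these data known, so its counts are not read against those shares. KRT13, a keratin of suprabasal mucosal layers, rose at log2 0.91 ± 0.22 and 1.36 ± 0.21, and MAL, a membrane protein of mature mucosal cells, at 2.22 ± 0.38 and 2.32 ± 0.39. Their summed level was 29773 to 54161 CPM in Vehicle, 71968 to 97672 in smTEADi, 12890 to 23666 in Control and 46947 to 59467 in pTEADi. Within groups, the mean log2 CPM of the list correlated with FUT3 at 0.76, FUT6 at 0.71 and FUT2 and B3GNT3 at 0.63. It correlated with B3GALT5 at 0.52, FUT1 at 0.51, GCNT3 at 0.26 and GALNT3 at -0.38. The second Control library had the lowest summed level of its group, 12890 CPM, but stood 0.20 above its group on the mean log2 CPM. The mean of 8 keratinocyte markers of the tumour (KRT5, KRT14 and TP63 among them) ran the other way, at -0.79 with B3GALT5, -0.57 with B3GNT3 and -0.53 with FUT3 and FUT6. It was at -0.44 with GALNT3, -0.34 with GCNT3, 0.06 with FUT1 and 0.21 with FUT2. The shifts of this keratinocyte list within groups were small, from -0.19 to 0.17 log2 units. In bulk tumours, fewer cells of a type and less RNA per cell cannot be told apart, and the part of either list in the levels above was not tested.

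A list of 12 hypoxia response genes, written after the data had been seen, also moved with the libraries. It correlated within groups with FUT3 at 0.83, B3GNT3 at 0.76, FUT6 at 0.65 and B3GALT5 at 0.64. With the others it was at 0.49 for FUT1, 0.24 for GALNT3, 0.07 for GCNT3 and -0.19 for FUT2. The first smTEADi library stood 0.52 log2 units above its group on this list, and the third stood below it (-0.83), as the 4 covarying glycan genes did. The second smTEADi library stood 0.31 above on this list where the 4 genes stood below (-0.22), and the second Control library stood 0.29 above where they stood 0.97 above. Under pTEADi 10 of the 12 fell (median log2 -0.91), where 13.6% of all genes tested fell. Since the data had been seen when the list was written, this count is not read against that share. Among the 10 were CA9, a carbonic anhydrase, at -2.65 ± 0.18 and VEGFA, the vascular growth factor, at -1.22 ± 0.21. The 4 glycan genes did not fall there. Under SW-682 none of the 12 passed with edgeR, none with DESeq2, and none had an unadjusted p under 0.05. The part of these genes in the levels above was not tested.

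Counts of human genes that mark other cell types were low, and some moved. The tumours were xenografts and the reads were aligned to the human genome, so these counts do not measure how many host cells were present. PTPRC and AIF1 of leukocytes, COL3A1 of fibroblasts, PECAM1, CDH5, KDR and TEK of endothelium, and ADIPOQ and LEP of adipocytes had at most 3 counts in every library. The 5 endothelial markers together, 4 of them at that level, were at 15.8 to 33.1 CPM in Vehicle, 35.7 to 64.2 in smTEADi, 13.0 to 21.1 in Control and 30.6 to 41.9 in pTEADi, and VWF, the remaining one, rose under pTEADi (log2 1.19 ± 0.19). The 7 leukocyte markers together were at 30.9 to 40.8 CPM in Vehicle, 30.5 to 52.2 in smTEADi, 43.2 to 69.1 in Control and 31.3 to 37.2 in pTEADi. Of the 4 tested, CD74 and CSF1R fell under pTEADi, and CD74 and CD14 were higher in Control than in Vehicle. The 6 fibroblast markers made 73.0 to 92.7, 83.4 to 90.6, 95.7 to 114 and 95.8 to 135 CPM in the same order of groups, and COL1A1 was higher in Control than in Vehicle. The 5 adipocyte markers made 38.02 to 40.04, 43.2 to 74.5, 39.6 to 52.9 and 54.9 to 65.2 CPM, and CFD rose under pTEADi and was higher in Control than in Vehicle. The part of such cells in the levels above was not tested. Of 8 markers of goblet and mucous cells, which carry many of these enzymes in glandular mucosa, 5 (FOXA3, TFF1, TFF3, CLCA1 and BPIFB1) had at most 3 counts, and the 8 together made 6.67 to 12.5 CPM. The 8 keratinocyte markers, KRT5 and TP63 among them, made 40075 to 76370 CPM, which matches the labelled squamous carcinoma. Libraries held 13576494 to 15433679 expected counts. On the first principal component of the SW-682 pair, the first smTEADi library stood at 58.4 against 15.5 and 11.6 for the others of its group, and the second Vehicle library at -8.22 against -35.0 and -42.3. Without these 2 libraries the log2 fold changes with SW-682 were 0.75 for FUT2, 1.40 for FUT6, 1.34 for B3GALT5 and 1.18 for FUT3, and 4 of the 8 genes were called.

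The rest of the pathway was read from 8 lists of 89 other genes, of which 60 were tested in both comparisons. These lists were chosen with earlier results of these data known, so their counts are not read against the shares of all genes. Under SW-682, 3 rose and 1 fell, or 6.67%, against 5.5% of all genes tested, and the same 3 left-out libraries each brought these 4 calls to 0. Under pTEADi, 15 rose and 7 fell, or 36.7%, against 26.3% of all. The 15 include MUC21, which passed the low-count filter through the pTEADi libraries alone and so had to differ. The median log2 fold change of the 60 was 0.17 and 0.12 in that order. For the difference of the effects, none of 62 passed with edgeR or DESeq2, and 6 had an unadjusted p under 0.05. In Control against Vehicle, 8 of the 62 were higher in Control and 12 lower, or 32.3%, against 35.1% of all. Among the 12 were GCNT4, B4GALT4, ST3GAL6, ST6GALNAC1, MUC15 and MUC21. The pTEADi fold changes of these genes were therefore taken over a lower control level. The adjusted p-values in the following paragraphs are from edgeR over all genes.

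Among 7 other fucosyltransferase genes tested, FUT7, whose enzyme makes sialyl Lewis x, rose in both comparisons, at log2 1.04 ± 0.25 (adjusted p = 0.0476) with SW-682 and 1.13 ± 0.25 (adjusted p = 0.0057) with pTEADi. It was at 5.48, 9.07 and 6.71 CPM in Vehicle, 18.0, 10.05 and 15.7 in smTEADi, 5.93, 5.38 and 10.5 in Control and 15.2, 19.95 and 12.7 in pTEADi. Each treated group lay above its controls. FUT11 fell under pTEADi (-0.46 ± 0.12). POFUT1, which fucosylates Notch receptors and was the most abundant of them, ranged from 65.4 to 86.8 CPM. In the supply of the fucose donor, FCSK (fucose kinase, 0.38 ± 0.12) and SLC35C1 (the Golgi GDP-fucose transporter, 0.38 ± 0.10) rose under pTEADi, 2 of 5 tested. GFUS, the most abundant gene of the supply, was at 61.2 to 119 CPM and passed in neither comparison.

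Of the 4 tested genes for cores and branches, GCNT4, a relative of GCNT3, rose (log2 1.82 ± 0.37) and GCNT1, the core 2 branching enzyme, fell (-0.91 ± 0.16) under pTEADi. GCNT4 was low, at 1.33, 0.57 and 0.77 CPM in Control, 2.48, 3.40 and 3.60 in pTEADi and 1.92, 3.16 and 1.99 in Vehicle. It reached the minimum of the low-count filter in 2 Control libraries and 3 pTEADi libraries. C1GALT1, the core 1 synthase and the most abundant, ranged from 31.9 to 87.1 CPM. Among 12 genes of chain extension, B3GALT4 (0.78 ± 0.20) and B4GALT4 (0.50 ± 0.10) rose and B4GALT1 fell (-0.41 ± 0.08) under pTEADi. B4GALT5, the most abundant, was at 146 to 203 CPM. With SW-682, none of these 16 genes passed with edgeR, 5 had an unadjusted p under 0.05, and DESeq2 called 2.

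Sialyltransferases of chain ends moved in both directions. ST6GALNAC1, which makes the sialyl-Tn antigen by sialylating the first sugar of mucin-type glycans, rose at log2 1.17 ± 0.24 with SW-682 (adjusted p = 0.0383) and 2.05 ± 0.19 with pTEADi. Its levels were 7.40, 8.58 and 5.96 CPM in Vehicle, 22.1, 12.1 and 15.2 in smTEADi, 3.84, 5.09 and 4.26 in Control and 15.7, 22.6 and 16.5 in pTEADi, without overlap in either pair. ST3GAL2, which sialylates core 1 glycans and glycolipids, fell in both, at -0.79 ± 0.16 and -0.39 ± 0.12. Under pTEADi ST3GAL1 (0.38 ± 0.13, adjusted p = 0.0497) and ST3GAL6 (0.93 ± 0.30) also rose, and ST6GAL1, the main alpha-2,6-sialyltransferase of N-glycans, fell at -1.01 ± 0.22, as did ST6GALNAC4 at -0.45 ± 0.15. The pTEADi falls of ST3GAL2 and ST6GALNAC4 were taken over a control level above that of Vehicle. ST3GAL2 was at 13.2 to 16.0 CPM in Vehicle, 18.8 to 20.9 in Control and 14.8 to 16.3 in pTEADi. For ST6GALNAC4 these ranges were 6.92 to 8.43, 9.84 to 11.2 and 6.93 to 8.46 CPM. In all, 6 of 11 passed under pTEADi and 2 of 11 under SW-682. ST3GAL4, the most abundant, ranged from 25.3 to 88.2 CPM.

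Among enzymes of other caps, ABO, the blood group A and B transferase that uses the H antigen, rose under pTEADi at log2 1.54 ± 0.38 from a low level of 0.64 ± 0.13 to 1.86 ± 0.33 CPM (SD, n = 3). ABO reached the minimum of the low-count filter in 1 Control library and 3 pTEADi libraries. It thus passed the filter mainly through the group where it was higher, pTEADi. B4GALNT3, whose enzyme caps chains with N-acetylgalactosamine and which was the most abundant at 82.8 to 185 CPM, rose (0.43 ± 0.10) and CHST2, a sulfotransferase, fell (-0.90 ± 0.24) there. Of the mucins that carry such glycans, MUC15 was the most abundant and rose in both comparisons, at 1.42 ± 0.26 (adjusted p = 0.0365) and 1.65 ± 0.24. It was at 17.9, 33.5 and 15.6 CPM in Vehicle, 72.0, 51.6 and 55.8 in smTEADi, 6.77, 8.96 and 14.7 in Control and 25.3, 34.2 and 36.4 in pTEADi. MUC16, the CA125 antigen, rose under pTEADi (1.18 ± 0.35). MUC21 had 0, 3 and 2 counts in Control and 10, 22 and 22 in pTEADi. It is 1 of the 15 genes counted as rising, but it passed the low-count filter through the pTEADi libraries alone and so had to differ. These are transmembrane mucins, and 8 of the 13 mucins listed were too low to be tested in either comparison.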

How the data were processed

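Per the series' design text and the submitters' processing notes, the authors aligned paired reads of 150 bases to GRCh38 with STAR 2.7.9a and Gencode 38 and quantified genes with RSEM 1.3.1. Deposited were the resulting expected counts, in 1 table per experiment, not scaled between libraries. The strand setting and any separation of host reads are not given in the sources used here. Reads shared by similar genes are divided by RSEM.

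Expected counts were rounded, filtered with filterByExpr (minimum count 10), scaled by TMM and tested with edgeR 4.0.16 under R 4.3.3 (quasi-likelihood F test, two-sided), with Benjamini-Hochberg adjustment over all genes and a threshold of 0.05. The SE is the log2 fold change divided by the square root of F. Each treatment was fitted with its own control, and the difference of effects and Control against Vehicle in 1 fit of 12 libraries. CPM is TMM-scaled over all 12, and log2 CPM has a prior count of 2. Symbols and positions are from Gencode 44, which held 60463 of 60649 IDs, and promoters from RefSeq. Library totals were 13576494 to 15433679, so a count in single digits is imprecise.

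The 8 genes and all lists were chosen with earlier results of these data known. Named genes were the 8, the list genes called in either comparison, the most abundant gene of each list and the 5 nearest profiles; marker and hypoxia genes named beside them were picked after their values were seen. Alternatives included DESeq2 1.42.0, limma-voom (limma 3.58.1), other scaling and filters, leaving out each library in turn, and a replicate block. The tests were tried on simulated data.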

Additional observations from a re-analysis of the deposited data

How the results depend on the processing

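The SW-682 comparison was sensitive to its settings. Its 816 called genes became 0 at an adjusted p of 0.01, 2101 without the low-count filter, 1868 with DESeq2, 2303 with all 12 libraries in 1 fit and 0 to 1622 when each library was left out, with 0 without smTEADi 3, Vehicle 1 or Vehicle 3. Leaving out both smTEADi 1 and Vehicle 2, chosen after seeing the data, gave 2073. The 3 of the 8 genes called became 0 at 0.01 and 0 to 4 with a library left out, with 0 without the same 3 libraries and 1 without smTEADi 2. The 4 other glycan genes called became 0 at 0.01, 9 without the filter, 7 with DESeq2, 8 in the 12-library fit, 0 to 7 with a library left out (1 without smTEADi 1) and 9 without both. Under pTEADi, 3864 genes became 2138 at 0.01 and 2325 to 4379 with a library left out, 5 of the 8 genes became 4 to 6, and 22 other glycan genes became 11 at 0.01 and 12 to 23. The FUT3 call under pTEADi held in 2 of the 6 fits that left out a library (lost without Control 1, Control 3, pTEADi 2 or pTEADi 3), while FUT2, FUT6, B3GALT5 and GALNT3 held in all 6. DESeq2 called those 4 genes but not FUT3. With FUT3 and FUT6 summed to 1 feature, the pTEADi value was 1.14, against 2.42 for FUT6 and 0.92 for FUT3 fitted singly. FUT3 held most of the summed counts, so 1.14 is not a value for FUT6. For the difference of effects, 2 called genes became 0 at 0.01, 377 without the filter, 37 with DESeq2 and 0 to 20. Control against Vehicle went from 5428 to 3010 at 0.01 and 3586 to 5895. The difference changed sign for FUT3 without smTEADi 1 (range with a library left out -0.97 to 0.10), for B3GNT3 (range -0.37 to 0.47) with limma-voom (0.13) and without Vehicle 1 (0.05), smTEADi 1 (0.38), Control 2 (0.47) or pTEADi 1 (0.0015), and for GCNT3 (range -0.98 to 0.48) without Control 2 (0.48), pTEADi 1 (0.35) or pTEADi 2 (0.02). The median correlation of all 28 pairs was 0.356, and 0.276 to 0.392 with a library left out. The causes were not tested.

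Same-numbered samples did not deviate together (r from -0.110 to 0.115), so the numbers were not taken as pairs. With the replicate block the SW-682 calls were 0 for all genes, 0 of the 8 and 0 other glycan genes. With that block the pTEADi counts were 3707, 6 and 23, the difference had 0 and Control against Vehicle 5022.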
